A study of Mus musculus with 24 samples.

Results

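The genes described here are 34 genes of DNA break repair and of the checkpoint that halts the cell cycle at damaged DNA. They were chosen by name, as equal to a gene name in the deposited table, and all 34 were found among its 45706 genes. By role they were grouped as 9 recombination factors, 7 Fanconi genes, 6 genes that act on break ends and their resection, 4 checkpoint kinases, 4 genes of the chromatin marks laid down at breaks and 4 genes of end joining. All 34 passed the filter on low counts. A single library held at least 130 counts of each of them.

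They were measured by RNA sequencing of bulk primary mouse embryonic fibroblasts (MEFs, the adherent cells that grow from minced embryos), of a strain the labels spell C57B1/6. The cells were wild type (WT) or lacked cGAS (KO), the sensor of DNA in the cytosol, which is encoded by Mb21d1. RNA was taken on day 33 (passage 11), day 36 (passage 12) and day 42 (passage 14) of culture under 20% oxygen. The labels list 4 numbered samples per genotype and day, but these 4 agree within sampling noise (chi-square per degree of freedom of 0.832 to 0.843 over genes with 80 or more counts, 0.995 to 1.05 over the 332 to 780 genes of a library with the highest counts, and 11.7 to 66.7 against another group). Their sum was taken as 1 sample, which leaves 1 library for each genotype and day and n = 3 for each genotype. The 3 libraries of a genotype differ in day and passage and are not known to be separate cultures.

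The labels give no number of embryos or culture lines. The p-values below therefore measure nothing beyond the spread of these 6 libraries over days and passages, and that spread may be technical. If each genotype was 1 culture line, genotype and line cannot be told apart. The libraries held 25650577 to 48716880 counts. In CPM (counts scaled to 1 common library size), Mb21d1 had values of 4.74, 4.08 and 4.82 in WT against 0.239, 0 and 0.127 in KO for the days in that order (-5.11 ± 0.62 on the log2 scale, adjusted p = 0.0102, not called without KO day 42). The 12 fibroblast markers summed to 54120 to 65470 CPM in every library, with 0 of the 12 called between genotypes by edgeR, 6 at an unadjusted p below 0.05, 4 called lower in KO by DESeq2, 0 called by limma-voom and a median log2 fold change of -0.50. The 16 macrophage markers, of which 13 were tested with 0 called by edgeR, DESeq2 or limma-voom and 0 at an unadjusted p below 0.05, summed to 11.2 to 176 CPM in WT and 7.18 to 82.4 CPM in KO, highest on day 33 in both. Their median log2 fold change was -1.33, with 1 of the 13 positive. Between days 42 and 33, edgeR and limma-voom called 0 of 14 tested, and DESeq2 called 11 lower on day 42 (222 of 17779 genes). In the edgeR test 14 of the 14 had an unadjusted p below 0.05 (2137 of 17779 genes). The 7 endothelial markers summed to 15.6 to 16 CPM in WT and 7.53 to 12.9 CPM in KO, without overlap, with 0 of 4 tested called by edgeR, 2 at an unadjusted p below 0.05 and 1 called lower by each of DESeq2 and limma-voom. The 7 epithelial markers summed to 19.6 to 39.8 CPM in WT and 19.9 to 24.2 CPM in KO, with 0 of 4 called by any of the 3 tools and 1 at an unadjusted p below 0.05 by edgeR. The part of these marker differences in the results below was not tested. Of 5 sex-linked genes 1 was called higher and 4 lower in KO. Xist, the RNA made from an inactive X chromosome, stood at 0.0573 to 0.363 CPM for WT and 465 to 641 CPM for KO, and 4 genes of the Y chromosome were lower in KO, with log2 fold changes of -1.84 for Ddx3y, -2.48 for Kdm5d, -3.24 for Eif2s3y and -3.45 for Uty. With these libraries the genotype and the sex of the cells cannot be told apart in any comparison of KO with WT below.

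A double-strand break can be rejoined directly, by end joining, or copied back from the sister DNA molecule, by homologous recombination. Recombination starts with nucleases that trim the ends to single strands, and BRCA1, BRCA2 and their partners then act on these strands so that they can pair with the sister copy. It works in S and G2 phase, when a sister copy exists, whereas end joining works through the whole cycle. The Fanconi genes unhook crosslinks between the strands and hand the break to recombination, and the ATM and ATR kinases signal from breaks and from stalled forks to CHK2 and CHK1.

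Over the 3 days, 16 of the 34 genes were higher in KO than in WT cells and 0 were lower, by 1.401 to 2.17-fold. The 16 were Brca1, Brca2, Bard1, Rad51ap1, Rad54l, Rad54b, Exo1, Blm, Fanca, Fancb, Fancd2, Fanci, Fancm, Brip1, Chek1 and H2afx. Of all 17233 genes tested, 8.72% were called, 4.07% higher and 4.65% lower, by the same edgeR quasi-likelihood test at an adjusted p below 0.05. That was 701 genes higher and 802 lower (1022 and 635 when libraries were scaled by their totals alone, which moved the median of all genes up by 0.107 and left 18 of the 34 called). The median log2 fold change was 0.54 over the 34 genes and -0.0073 over all genes. By role the count was 6 of 9 recombination factors, 6 of 7 Fanconi genes, 2 of 6 genes of end resection, 1 of 4 kinases, 1 of 4 chromatin genes and 0 of 4 end joining genes. DESeq2 called 21 of the 34, all higher (7.55% of all genes were called higher), adding Mre11a, Rbbp8, Atm, Mdc1 and Xrcc5. Of the 18 genes that edgeR did not call, 9 had an unadjusted p below 0.05, against 20.3% of all genes not called, and 33 of the 34 had a positive fold change, against 49.1% of all genes.

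**Figure D1:**
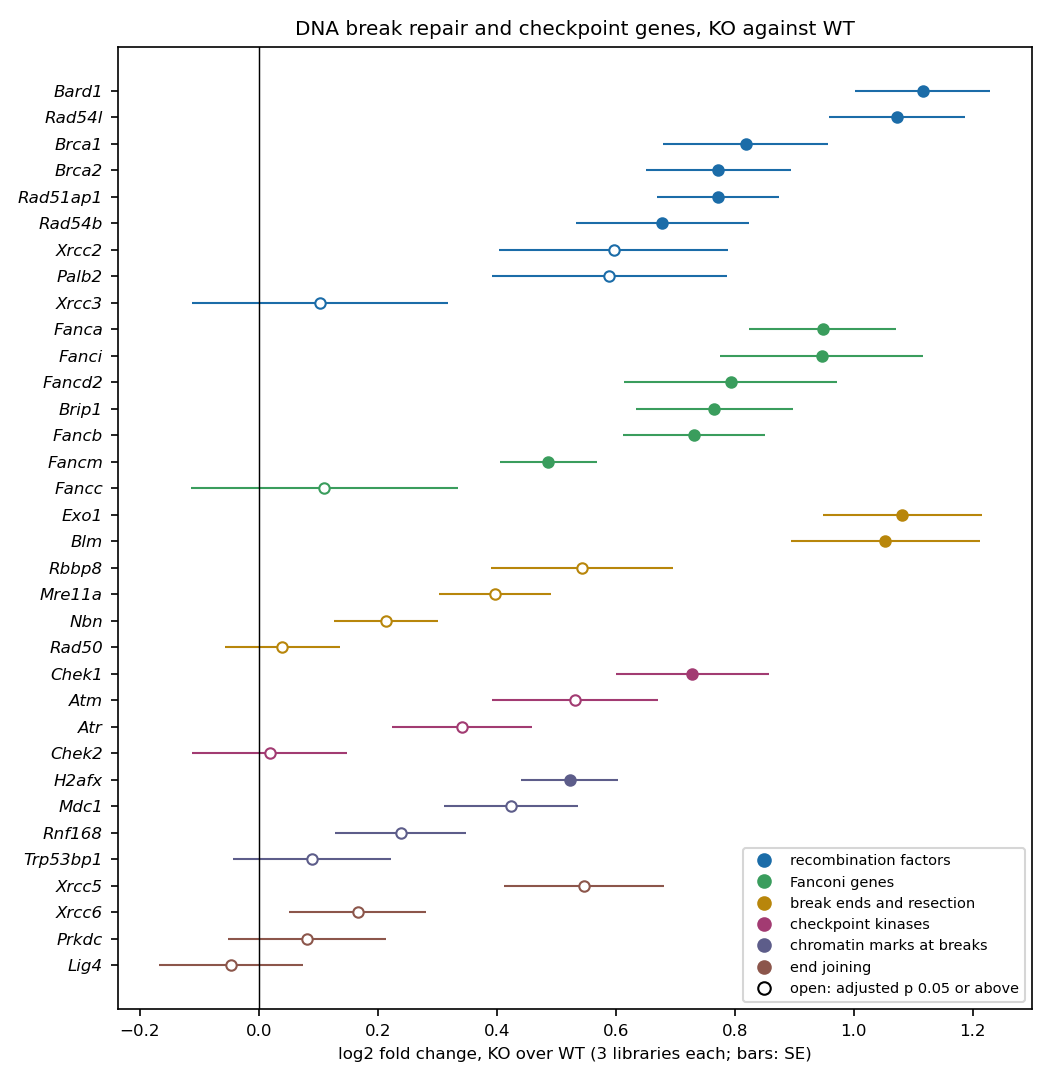
Log2 fold change of each gene, KO over WT, on the x axis (points; bars are SE; 3 libraries per genotype), with the genes on the y axis ordered by role and filled where the adjusted p was below 0.05. Bard1, Exo1, Rad54l and Blm lie farthest to the right, from 1.05 to 1.12, Xrcc3 (0.10) and Fancc (0.11) lie near 0 although most of their groups are filled, and the end joining genes Xrcc6, Prkdc and Lig4 lie near 0.

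In 26 of the 34 genes the lowest KO library stood above the highest WT library, which held for 17.2% of all genes, and in 0 genes did all KO libraries stand below (17.1% of all genes). The 26 include all 16 called genes and 10 that were not called. In the other 8 genes the libraries of the genotypes overlapped: Xrcc3, Rad50, Fancc, Chek2, Trp53bp1, Xrcc6, Prkdc and Lig4. In bulk RNA, a larger share of cells with a transcript and more of it per cell cannot be told apart. Gene positions below are those of GENCODE M21 on GRCm38, the assembly also called mm10.

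**Figure D2:**
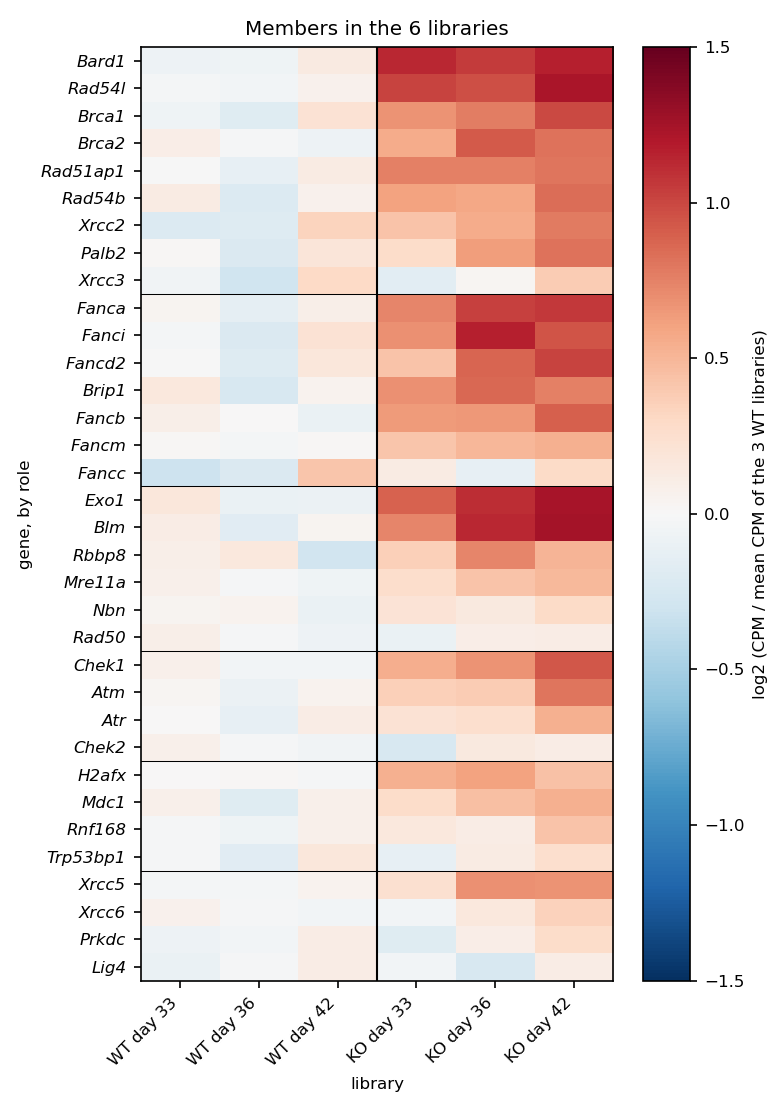
Level of each gene (rows, by role) in each library (columns) as log2 of its CPM over the mean CPM of the 3 WT libraries; red is above that mean and blue below. The KO columns are red for most genes, more so on days 36 and 42 than on day 33, while the WT columns stay near white.

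The sequence around the start sites was read for motifs of cell cycle control, since the called genes include many that are known to be transcribed in S and G2 phase. RefSeq promoters (300 bases, 250 before the start and 50 from it on, GRCm38.p6) were given for 25 of the 34 genes. An E2F motif, searched on both strands as TTTCCCGC, TTTCGCGC, TTTGCCGC or TTTGGCGC, was present for 5 of the 25 genes (20%) against 2.6% of 27025 genes with a promoter. It stood in 2 of 12 called genes and 3 of 13 that were not called. The CCAAT box, searched as CCAAT, was present for 17 of 25 (68%) against 41.1%, with the matches of Palb2 and Xrcc6 lying after the start. It stood in 8 of 12 called genes and 9 of 13 that were not called. The CHR element, searched as TTTGAA or TTCGAA, was present for 2 of 25 (8%) against 21.7%, in 1 of 12 called genes and 1 of 13 not called. No motif holds the letters of another. Stretches of 60 bases are shown with the E2F match in capitals, because the same letters stand before called and uncalled genes. Bard1 (chr1:71103148-71103207, minus strand) and Brca2 (chr5:150522427-150522486, plus strand) were called. Chek2 (chr5:110839805-110839864, plus strand) and Mdc1 (chr17:35841438-35841497, plus strand) were not called by edgeR. For Mdc1 all KO libraries still stood above all WT libraries, and DESeq2 called it higher.
Bard1: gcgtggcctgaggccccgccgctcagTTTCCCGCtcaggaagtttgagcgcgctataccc
Brca2: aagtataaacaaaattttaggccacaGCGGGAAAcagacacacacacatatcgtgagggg
Chek2: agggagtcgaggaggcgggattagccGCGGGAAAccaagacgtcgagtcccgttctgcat
Mdc1: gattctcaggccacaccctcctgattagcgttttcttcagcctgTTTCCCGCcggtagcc
A match describes these letters and shows no binding.

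Among the recombination factors, the largest difference was that of Bard1 (ENSMUSG00000026196, chromosome 1, 71027498 to 71103146, minus strand), the partner of BRCA1 in a ubiquitin ligase. For days 33, 36 and 42, in this order here and below, Bard1 had values of 5.57, 5.64 and 6.45 CPM in the WT libraries against 12.9, 12.2 and 13.2 CPM in those of KO. The KO libraries were thus all about 2-fold above WT, with little change over days in either genotype. The log2 fold change was 1.12 ± 0.11 (adjusted p = 0.00897). BRCA1 itself scaffolds the recombination complexes at the break. Brca1 (ENSMUSG00000017146, chromosome 11, 101488764 to 101551955) measured 17.3, 16 and 21 CPM in the WT libraries against 28.8, 30.9 and 35.9 in those of KO, highest on day 42 in both genotypes, and rose by 0.82 ± 0.14 on the log2 scale (adjusted p = 0.0223). BRCA2 acts on the resected single strands. Brca2 (ENSMUSG00000041147, chromosome 5, 150522630 to 150570329) stood at 15.5, 14.3 and 13.7 CPM in WT libraries, compared with 21.3, 27.4 and 25.5 for KO, and its KO library of day 33 lay closest to WT (0.77 ± 0.12, adjusted p = 0.0182).

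Rad54l, Rad54b and Rad51ap1 were also called higher. Rad54l (ENSMUSG00000028702, chromosome 4, 116094264 to 116123690, minus strand), a motor protein that works during strand exchange, had WT values of 7.2, 7.13 and 7.63 CPM against 14.7, 14.3 and 17.1 in KO. Its WT libraries lay within 1 CPM of each other and all KO libraries were about 2-fold higher (1.07 ± 0.11, adjusted p = 0.00897). Rad54b, its paralog, measured 5.92, 4.72 and 5.7 CPM in the WT libraries against 8.29, 8.14 and 9.71 in those of KO (0.68 ± 0.15, adjusted p = 0.03995). Rad51ap1, which stimulates strand invasion, stood at 10.02, 9.17 and 10.9 CPM in WT libraries, compared with 17, 16.9 and 17.4 for KO, the narrowest spread over KO days of the 9 recombination factors (0.77 ± 0.10, adjusted p = 0.0121).

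The remaining 3 recombination factors were not called. Palb2, which bridges BRCA1 and BRCA2, was the lowest of the 34 genes per length in WT, at 0.638 CPM per kilobase. Its CPM were 3.5, 2.98 and 3.93 in WT and 4.19, 5.37 and 6.09 in KO, without overlap (0.59 ± 0.20, adjusted p = 0.117). Xrcc2, which acts in strand pairing, had WT values of 5.32, 5.39 and 7.74 CPM against 8.26, 9.03 and 10.5 in KO (0.60 ± 0.19, adjusted p = 0.107). For Xrcc3, a paralog of Xrcc2, the values were 5.7, 4.82 and 7.28 in WT and 5.3, 6.05 and 7.73 in KO, and both genotypes were highest on day 42 (0.10 ± 0.22, adjusted p = 0.801). Without the WT library of day 36 or the KO library of day 42 the sign of the Xrcc3 difference turned, to -0.025 and -0.062.

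Of the Fanconi genes, the core complex members Fanca and Fancb were called and Fancc was not. Fanca (ENSMUSG00000032815, chromosome 8, 123268300 to 123318576) measured 15, 13.3 and 15.5 CPM in the WT libraries against 24.3, 29.7 and 30.5 in those of KO, 1.93-fold higher (0.95 ± 0.12, adjusted p = 0.0114). Fancb, which lies on the X chromosome, stood at 9.4, 8.9 and 8.26 CPM in WT libraries, compared with 13.7, 13.9 and 16.5 for KO (0.73 ± 0.12, adjusted p = 0.0198). The 885 tested genes of the X chromosome had a median log2 fold change of 0.04, and 5.08% of them were called higher. Fancc had WT values of 7.28, 7.8 and 12 CPM against 9.81, 8.32 and 11.1 in KO, with the highest value of all in the WT library of day 42 (0.11 ± 0.22, adjusted p = 0.796). Its difference was 0.43, 0.094 and -0.12 on days 33, 36 and 42, and its fold change over the days turned to -0.032 without day 33.

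FANCD2 and FANCI form the clamp that the core complex marks with ubiquitin. Fancd2 measured 10.3, 9.13 and 11.7 CPM in the WT libraries against 14, 19 and 20.9 in those of KO, so the KO library of day 33 was the one nearest to WT (0.79 ± 0.18, adjusted p = 0.0451). Fanci (ENSMUSG00000039187, chromosome 7, 79391929 to 79450264) stood at 8.76, 7.68 and 10.4 CPM in WT libraries, compared with 14.4, 20.1 and 17.2 for KO, highest in KO on day 36 (0.95 ± 0.17, adjusted p = 0.0257). Brip1, the BRCA1-bound helicase also known as FANCJ, had WT values of 10.5, 7.98 and 9.75 CPM against 15.1, 17 and 15.8 in KO (0.77 ± 0.13, adjusted p = 0.0231). Fancm, which moves branched DNA at blocked forks, measured 19.3, 18.5 and 19.2 CPM in the WT libraries against 25.4, 26.9 and 27.5 in those of KO, a rise of 0.49 ± 0.081 and the smallest of the 16 called (adjusted p = 0.0212).

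At the break ends, Exo1 and Blm rose and the other 4 genes, among them the 3 of the end-binding MRN complex, were not called. Exo1 (ENSMUSG00000039748, chromosome 1, 175880581 to 175913489, plus strand), the exonuclease that degrades one strand, stood at 13.1, 10.9 and 10.9 CPM in WT libraries, compared with 21.4, 24.9 and 27.4 for KO (1.08 ± 0.13, adjusted p = 0.0103). The daily difference on the log2 scale was 0.71, 1.19 and 1.33. Blm (ENSMUSG00000030528, chromosome 7, 80454733 to 80535119), the RecQ helicase that unwinds DNA for resection and dissolves crossed strands, had WT values of 12.9, 10.7 and 12.3 CPM against 19.9, 26.3 and 28.3 in KO (1.05 ± 0.16, adjusted p = 0.0164). Both were lowest in KO on day 33 and highest on day 42, still above every WT library.

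MRE11 is the nuclease of the MRN complex, RAD50 the clamp and NBN the subunit that recruits ATM. Mre11a measured 39.4, 36.9 and 35.9 CPM in the WT libraries against 44.7, 50.4 and 52.5 in those of KO, without overlap and just over the threshold (0.40 ± 0.094, adjusted p = 0.0514). Rad50 stood at 59.5, 55.3 and 52.8 CPM in WT libraries, compared with 52, 59.7 and 60.5 for KO, with the lowest value of all in the KO library of day 33 (0.039 ± 0.096, adjusted p = 0.833; -0.034 without day 42). Nbn had WT values of 35.9, 36.2 and 32.4 CPM against 40.2, 38.4 and 42.5 in KO (0.21 ± 0.088, adjusted p = 0.178). Rbbp8, which encodes CtIP, the cofactor that starts resection, measured 29.3, 30.6 and 22.6 CPM in the WT libraries against 35.2, 45.7 and 39.3 in those of KO (0.54 ± 0.15, adjusted p = 0.0794). In the fit over the 3 days the 3 MRN genes were within 1.32-fold of WT, although Mre11a stood 1.37-fold above it on day 36 and 1.46-fold on day 42, whereas Exo1 and Blm were about 2-fold above it; the difference between these genes was not tested.

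Of the checkpoint kinases, Chek1 was called and the other 3 were not. Chek1 (ENSMUSG00000032113, chromosome 9, 36708482 to 36727065), the kinase downstream of ATR that restrains cells with unfinished replication, stood at 10.8, 10.02 and 10.004 CPM in WT libraries, compared with 15, 16.4 and 19.7 for KO (0.73 ± 0.13, adjusted p = 0.0242). Chek2, the kinase downstream of ATM, had WT values of 14.4, 13.5 and 13.1 CPM against 11.6, 15.2 and 14.8 in KO. The lowest and the highest Chek2 value were both in KO, on days 33 and 36, and the fold change of 0.018 ± 0.13 (adjusted p = 0.948) turned to -0.057 without day 36, -0.056 without day 42 and -0.00064 with no filter on low counts. Atm measured 46.2, 42.5 and 46.7 CPM in the WT libraries against 57.8, 59 and 78.9 in those of KO, where the library of day 42 stood apart from the other two (0.53 ± 0.14, adjusted p = 0.0649). Atr stood at 37.9, 34.5 and 40.7 CPM in WT libraries, compared with 43.9, 44.9 and 54.5 for KO (0.34 ± 0.12, adjusted p = 0.124).

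Chek1, Atm, Atr, Mre11a and H2afx lie on chromosome 9, as does the targeted Mb21d1. Over the 886 tested genes of chromosome 9 the median log2 fold change was -0.03, and 3.72% were called higher. The differences of these 5 genes ran from 0.34 to 0.73.

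Among the chromatin genes, H2afx encodes the histone variant H2AX that ATM phosphorylates around a break. H2afx (ENSMUSG00000049932, chromosome 9, 44334694 to 44336077, plus strand) had WT values of 27.1, 27.2 and 26.6 CPM against 38.9, 40.9 and 36.4 in KO. The WT values lay within 1 CPM of each other, and KO was 1.44-fold higher with no rise over the days (0.52 ± 0.081, adjusted p = 0.0177). Per length H2afx was the most abundant of the 34 genes in WT, at 21.7 CPM per kilobase. Mdc1, which reads phosphorylated H2AX, measured 65.6, 54.9 and 65.6 CPM in the WT libraries against 75, 84.7 and 89.9 in those of KO (0.42 ± 0.11, adjusted p = 0.0665).

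Downstream of that mark, Rnf168, the ubiquitin ligase that prepares chromatin for 53BP1, stood at 33.9, 33 and 36.3 CPM in WT libraries, compared with 38.3, 37.1 and 46.3 for KO (0.24 ± 0.11, adjusted p = 0.222). Trp53bp1, which encodes 53BP1, the factor that protects ends from resection, had WT values of 63, 56.4 and 71.4 CPM against 58.4, 69 and 75.5 in KO. Its genotypes overlapped, with the lowest value in WT on day 36 and the highest in KO on day 42 (0.089 ± 0.13, adjusted p = 0.716; -0.0036 without day 36).

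None of the 4 end joining genes passed the test, 1 of them had an unadjusted p below 0.05, and DESeq2 called that 1, Xrcc5, while limma-voom called 0. Xrcc5, which encodes the Ku80 subunit of the ring that threads onto DNA ends, measured 29.7, 29.7 and 31.6 CPM in the WT libraries against 35.9, 48.6 and 48.4 in those of KO, all KO libraries above all WT libraries (0.55 ± 0.13, adjusted p = 0.0551). Xrcc6 encodes the Ku70 subunit and stood at 32.9, 31.2 and 30.6 CPM in WT libraries, compared with 30.8, 35.3 and 40.2 for KO (0.17 ± 0.12, adjusted p = 0.407). The kinase that Ku recruits, DNA-PKcs, is encoded by Prkdc, with 29.2, 29.9 and 33.2 CPM in WT libraries against 27.2, 33.1 and 37.3 for KO (0.081 ± 0.13, adjusted p = 0.742). Lig4, the ligase that seals the ends, had WT values of 18.8, 19.9 and 21.8 CPM against 19.7, 17.1 and 21.8 in KO, the 1 member with a negative fold change (-0.047 ± 0.12, adjusted p = 0.843). That sign was not stable, at 0.067 with library totals alone, which moved the median of all genes up, and 0.033 without day 36.

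Other genes of the same pathways, from lists of related genes, were called as well. Of 74 tested, 20 were higher and 1 lower in KO, 42 had an unadjusted p below 0.05 (27.3% of all genes did), and the median log2 fold change was 0.36. Calls per list were 4 of 16 further recombination genes, 2 of 12 further resection and resolution genes, 2 of 10 further Fanconi genes, 6 of 15 further checkpoint genes, 4 of 12 further chromatin genes and 3 of 9 further end joining genes. Without the KO library of day 36 or that of day 42, 0 of the 74 were called, and without WT day 33 or WT day 36 there were 3 and 7. Clspn, the adaptor through which ATR reaches CHK1, rose by 0.85 ± 0.086 (adjusted p = 0.00897), from 21.6 ± 0.731 to 39 ± 2.39 CPM (mean ± SD, n = 3).

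Further called genes belonged to each branch. Mms22l, which supports recombination at forks, rose by 0.75 ± 0.086, and BC030867, listed now as Hrob, by 0.85 ± 0.13. Usp1, which removes ubiquitin from FANCD2, rose by 0.82 ± 0.10 and Fancl, the ligase that adds it, by 0.65 ± 0.13. Eme1, a subunit of a junction-cutting nuclease, rose by 0.84 ± 0.17 and the helicase gene Recql4 by 0.70 ± 0.16. Wee1, which holds back mitotic entry, rose by 0.57 ± 0.084, and the phosphatase genes Cdc25b and Cdc25c, which promote it, by 0.87 ± 0.15 and 0.85 ± 0.18. Rif1, a 53BP1 effector, rose by 0.93 ± 0.13, Rad18 by 0.56 ± 0.11, Mad2l2 by 0.55 ± 0.11 and Usp28 by 0.68 ± 0.15.

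The 3 called genes of the further end joining list act in the alternative pathway that does not use Ku. Parp1, the sensor of nicked DNA, rose by 0.50 ± 0.11, Polq, the polymerase that joins ends by short matches, by 0.64 ± 0.14, and Lig3, a ligase, by 0.48 ± 0.11 (adjusted p = 0.0387, 0.0443 and 0.0462). The called gene that was lower in KO was Dmc1, the meiotic recombinase, with 0.47, 0.596 and 0.401 CPM in WT libraries against 0.0898, 0.0746 and 0.0507 for KO (-2.74 ± 0.34, adjusted p = 0.0104). It rests on as few as 2 counts in a library.

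On single days, where 1 library stood against 1 and no test was possible, 9, 19 and 18 of the 34 genes were at least 1.5-fold higher in KO on days 33, 36 and 42, and 0 were that much lower. The share of all 17233 genes was 6.6, 8.92 and 9.75% higher and 9.23, 10.2 and 13.9% lower. The median difference over the 34 genes was 0.41, 0.63 and 0.62 on the log2 scale (prior count 2). The 26 genes higher in KO on every day are the same 26 whose KO libraries all stood above WT, not a second result. Of all 17233 genes, 8517, 8543 and 8620 were higher in KO on days 33, 36 and 42, and the share higher on every day was not counted. Bard1 differed by 1.2, 1.1 and 1.03 and Rad54l by 1.03, 0.998 and 1.16, nearly alike on the 3 days. Blm differed by 0.62, 1.3 and 1.2 and Fanci by 0.72, 1.38 and 0.72, both most on day 36. The ratio for Blm was 1.54 on day 33 (counting interval 1.37 to 1.72) and 2.47 on day 36 (2.19 to 2.78), and these exact 95% intervals cover counting error only.

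**Figure D3:**
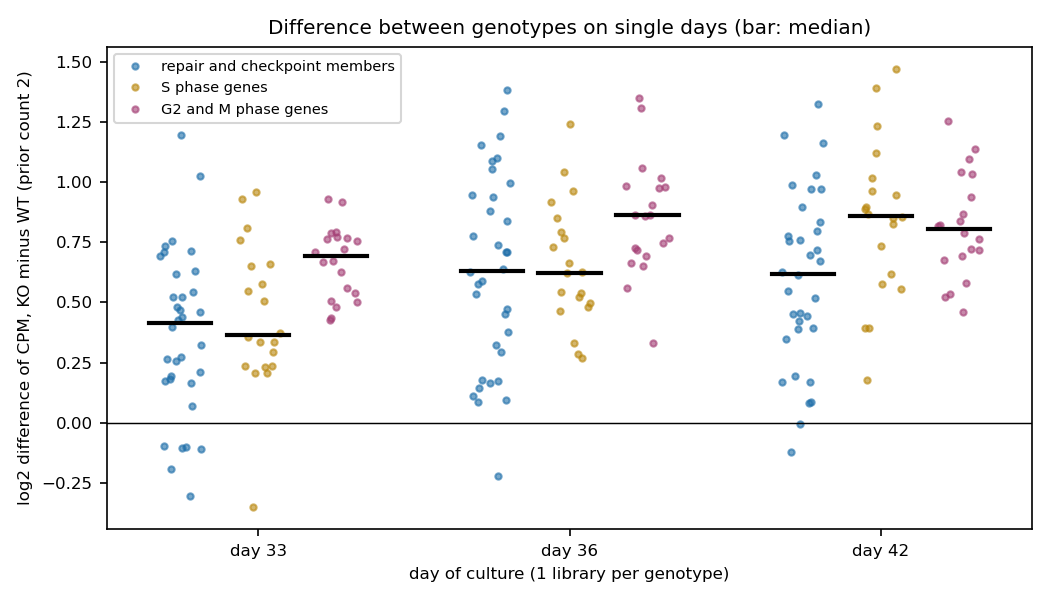
Difference in log2 CPM, KO minus WT, on the y axis for each gene (points) on each day (x axis; 1 library per genotype and day), for the 34 repair and checkpoint genes and for lists of 20 S phase and 20 G2 and M phase genes; black bars are medians. The medians of the repair genes were 0.41, 0.63 and 0.62, those of the S phase genes 0.36, 0.62 and 0.86 and those of the G2 and M phase genes 0.69, 0.86 and 0.80.

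Within a genotype the genes changed by less than 1.5-fold from day 33 to day 42, except Fancc in WT. In WT the median difference was 0.03 with 18 of 34 genes positive, where all 17233 genes had a median of 0.00012 and 8622 positive. In WT 1 gene, Fancc at 0.72, passed 1.5-fold upward and 0 downward (9.21 and 6.96% of all genes). In KO the median was 0.27 with 33 of 34 positive, all but H2afx, where all 17233 genes had a median of 0.0066 and 8755 positive. In KO 0 of the 34 passed 1.5-fold (5.48% of all genes upward and 7.37% downward). The largest KO differences were those of Fancd2, at 0.58, Xrcc3 (0.54), Palb2 (0.53) and Blm (0.51). Over both genotypes, 0 of 34 genes and 0% of 17779 genes were called between days 42 and 33 by edgeR's quasi-likelihood test. At an unadjusted p below 0.05 there were 2 of the 34 and 2137 of all genes, limma-voom called 0 of the 34 and 0 of all genes, and DESeq2 called 0 of the 34 and 307 of all genes. A change over days that differed between genotypes was likewise called for 0 of 34 genes and 0% of all 17233, with 0 and 1334 genes at an unadjusted p below 0.05. For that change limma-voom called 0 of the 34 and 0 of all genes, and DESeq2 0 and 129. The larger differences of days 36 and 42 are therefore given as values without a test.

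Genes of the cell cycle moved alongside. Of 20 S phase genes 14, and of 20 G2 and M phase genes 20, were called higher in KO, with medians of 0.65 and 0.79. Of the 40, 0 and 2 were called without KO day 36 and KO day 42, and 7 and 19 without WT day 33 and WT day 36. Mki67, a marker of cycling cells, stood at 147, 159.9 and 141 CPM in WT libraries, compared with 227, 264 and 289 for KO (0.80 ± 0.11, adjusted p = 0.0142). The S phase genes summed to 632 to 763 CPM in WT and 981 to 1116 CPM in KO, and the G2 and M phase genes to 991 to 1020 CPM and 1542 to 1806 CPM, without overlap. The fold change of Mki67 lay inside the range of the 16 called repair genes, 0.49 to 1.12. How far the repair genes follow the share of cycling cells was not tested.

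The number of calls depended on single libraries, for the 34 as for all genes, while the size of the differences did not move as far. Without the KO library of day 36 or that of day 42, 0 of the 34 genes were called, and without WT day 33 or WT day 36 there were 3 and 7. Without WT day 42 or KO day 33 the numbers were 16 and 17. At an unadjusted p below 0.05 the 6 fits gave 21 to 24 of the 34 genes, against 18.6 to 30.3% of all genes. There were 23 without KO day 36 and 21 without KO day 42, against 18.6 and 19.7% of all genes. The median log2 fold change over the 34 was 0.53 in the fit that lacked KO day 36, 0.49 in the one that lacked KO day 42 and 0.65 in the one that lacked KO day 33. The fold changes of the 16 called genes lay between 0.46 and 1.19 over the 6 fits. Their sign could hardly turn, since in all 16 every KO library stood above every WT library. Bard1, Rad54l and Exo1 were called in 4 of the 6 fits, lost without KO day 36 and without KO day 42. Rad54b was called in 0 of the 6, and it was also the call lost with day as a factor. The background fell with these counts, to 24 and 68 genes over the whole table for the fits that lacked KO day 36 and KO day 42, of which 2 and 18 were higher in KO, and to 254 and 738 for those that lacked WT day 33 and WT day 36.

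**Figure D4:**
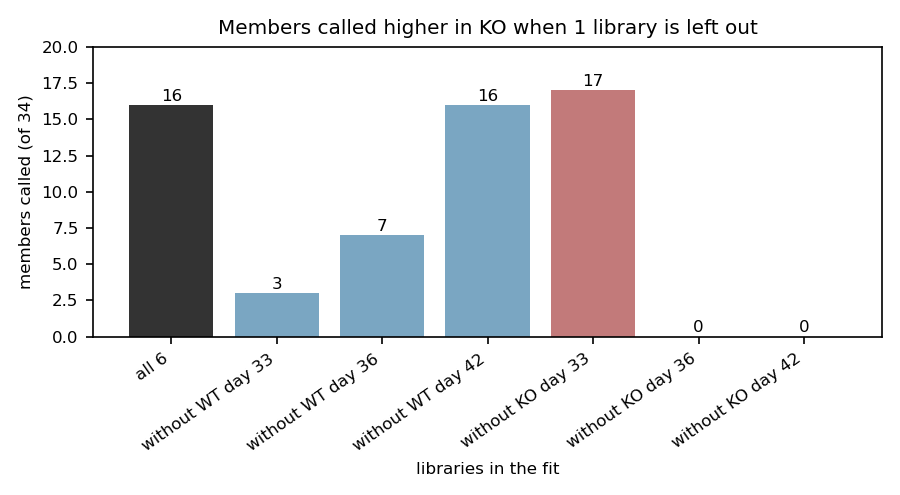
Number of the 34 genes called higher in KO (y axis) in the fit of all 6 libraries (dark bar) and in fits with 1 library left out (x axis; blue bars leave out a WT library and red bars a KO library). The count of 16 became 3, 7 and 16 without a WT library and 17, 0 and 0 without a KO library.

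The transcript table, which assigns counts to 212 annotated transcripts of the 34 genes, was read for shifts within a gene. Of these, 6 entries had the same length and the same counts in every library as another entry of their gene, and each such pair was counted once. In 15 of the 34 genes the leading transcript held 90% or more of the gene's transcript counts in both genotypes. A shift of at least 15 percentage points on every day, without overlap, was found for 1 transcript, ENSMUST00000139147 of Rad54l, which is annotated as non-coding. It held 84.1, 88.7 and 87.4% of the Rad54l transcript counts in WT and 65.5, 69.5 and 63.6% in KO on days 33, 36 and 42. These shares are of transcript counts that sum to 621, 645 and 592 in WT and 813, 616 and 1031 in KO, whereas the gene table holds 337, 311 and 266 and 492, 383 and 676 counts for Rad54l, so part of what they are shares of is not in the gene count. The 2 protein-coding transcripts ENSMUST00000102705 and ENSMUST00000102704, looked at after their values were seen, together held 3.98, 1.36 and 0.526% in WT and 22.0, 23.7 and 32.7% in KO. That was 24.7, 8.74 and 3.12 estimated counts in WT against 179, 146 and 337 in KO. Scaled to CPM over all transcript counts they had 0.436, 0.160 and 0.0760 in WT against 4.58, 4.92 and 7.98 in KO, while ENSMUST00000139147 had 9.21, 10.5 and 12.6 against 13.6, 14.4 and 15.5. The coding transcripts thus stood further apart than the whole gene, on a scale without TMM factors and with no test made.

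**Figure D5:**
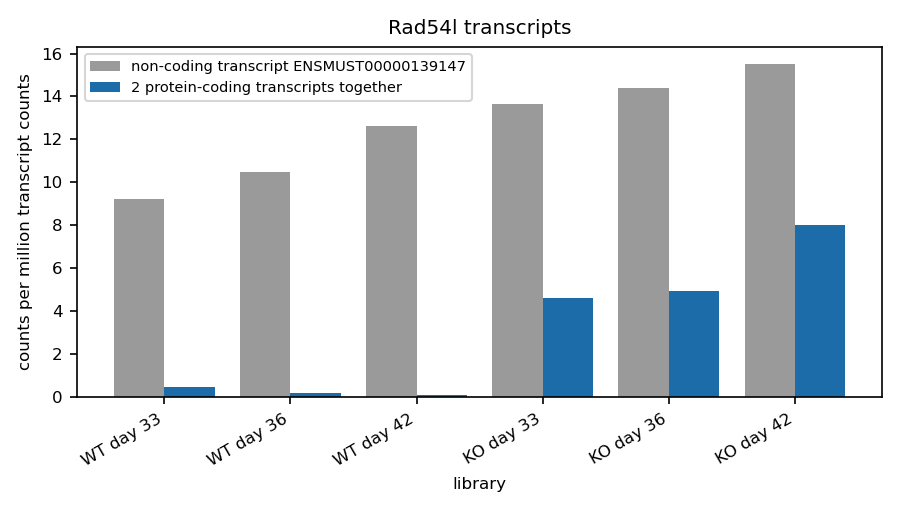
Rad54l transcripts in each library (x axis) in CPM over all transcript counts (y axis; bars start at 0, 1 library per bar), for the non-coding transcript ENSMUST00000139147 (grey) and the sum of the 2 protein-coding transcripts (blue). The blue bars are at most 0.436 in WT and at least 4.58 in KO, and the grey bars range from 9.21 to 15.5.

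The assignment of counts there is uncertain. Of the 4571 exonic bases of ENSMUST00000139147, 1184 (25.9%) also lie in exons of Lrrc41 on the opposite strand, a gene with 50.04 CPM in WT against 52.9 for KO (0.081 ± 0.10 on the log2 scale, adjusted p = 0.643), and the strand setting of the authors' counting is not given in the sources used here. For the gene-level value of Rad54l, the deposited gene length of 6534 bases is within 12 bases of the exonic length left once the shared bases are taken out. The same holds for Rad54b, whose exons share 2075 of 5782 bases with other genes, Fsbp on the same strand and Gm11832 on the opposite one, and whose deposited length of 3723 is within 16 bases of the unshared length. For Fancc the deposited length of 7719 lies between the unshared 6801 and the full 8359 bases. Over 10% of exonic bases were shared with another gene in 7 of the 34 genes. Of the genes they shared them with, Polg (with Fanci) differed by 0.21 ± 0.09, Tubgcp4 (with Trp53bp1) by 0.30 ± 0.12 and Zfp276 (with Fanca) by -0.10 ± 0.12, none of the 3 called (adjusted p = 0.187, 0.160 and 0.643). Fsbp (with Rad54b) differed by 0.70 ± 0.22 (adjusted p = 0.101), near the 0.68 of Rad54b, at 0.454 CPM in WT against 0.732 for KO. 2010111I01Rik (with Fancc) differed by 0.13 ± 0.18 (adjusted p = 0.676).

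Some of the genes share a promoter region with a neighbour that starts within 1000 bases in the opposite direction. Such a coding neighbour was annotated for 12 of the 34 genes, and 1 of the 12 neighbours was called, where 8.72% of all genes were. Nbr1, which starts 194 bases from Brca1, had a log2 fold change of -0.21 ± 0.09 against 0.82 for Brca1. Emc3, 30 bases from Fancd2, was at -0.21 ± 0.08 against 0.79, and Pomgnt1, 150 bases from Rad54l, at 0.13 ± 0.08 against 1.07. The called neighbour was Mcm4, a subunit of the replicative helicase, which starts 466 bases from Prkdc and rose by 0.53 ± 0.12 (adjusted p = 0.0463) while Prkdc was at 0.08. Npat, near Atm, was at 0.32 ± 0.09 against 0.53, and Ankrd49, near Mre11a, at 0.24 ± 0.15 against 0.40. Dctn5 was at -0.27 (Palb2 0.59), D6Wsu163e at -0.17 (Rad51ap1 0.77) and Mospd2 at -0.24 (Fancb 0.73). Zfyve21 was at -0.20 (Xrcc3 0.10), Hscb at -0.33 (Chek2 0.018) and Abhd13 at 0.13 (Lig4 -0.047).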

How the data were processed

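For genes and for transcripts, the authors deposited estimated counts that are fractional and unscaled, in 4 numbered columns per genotype and day, per the file headers. Libraries were stranded and poly(A)-selected, per the labels' protocols. Bowtie2 2.2.1, limma 3.18.13 and the build mm10 are named in the submitters' processing notes; the program that counted is not given in the sources used here. The 48 RPKM columns deposited beside the counts were not used.

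The 34 genes, the lists of related genes and the tests were chosen with earlier results of these data known. The 4 columns of a group had a mean chi-square per degree of freedom of 0.832 to 0.843 over 12385 to 13738 genes with 80 or more counts, so they were summed to 6 libraries and rounded. KO and WT were compared over the 3 days with edgeR 4.0.16 in R 4.3.3 (filterByExpr, TMM factors 0.927 to 1.08, robust quasi-likelihood test, Benjamini-Hochberg adjustment over all 17233 genes, threshold 0.05). CPM are counts over the TMM-adjusted library size, and SE is the absolute log2 fold change over the square root of F. Single libraries were compared without a test, calling genes at 1.5-fold or more with at least 1 CPM in the higher library. The scripts were tested on simulated counts.

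Named are all 34 genes, the related genes called (up to 4 of a list by adjusted p), Mki67 and Mb21d1; 1 related gene is not reported here. Tried beside this were limma-voom (limma 3.58.1), DESeq2 1.42.0, further scalings and filters, day as a factor, the 24 columns as samples with and without a replicate block, and leaving out libraries, days or columns. Faap24, Faap100 and Paxx, which were on the lists of related genes, matched no row by name. No RefSeq promoter was used for Rad50, H2afx, Prkdc, Nbn, Rad54b, Fancd2, Rbbp8, Xrcc2 and Exo1.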

Additional observations from a re-analysis of the deposited data

How the results depend on the processing

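The count of 16 repair and checkpoint genes called was 15 to 21 with DESeq2, limma-voom, other scalings and filters or day as a factor, and 14 to 17 without 1 of the 4 columns of each group. Leaving out 1 library gave 0 to 17 of them, 24 to 1811 of all genes, 0 to 20 related pathway genes and 0 to 33 cell cycle genes (16 to 23 and 34 to 35 without a column). Without day 33, 36 or 42 in both genotypes the counts were 3, 0 and 5 members, 429, 3 and 539 of all genes, 2, 0 and 5 pathway genes and 8, 0 and 12 cell cycle genes, from fits with 2 libraries per genotype. DESeq2 called 2855 genes against 1503, and 13 pathway genes were called with no filter against 21. With library totals alone, the median of all genes moved up by 0.107 and the calls were 1022 higher and 635 lower.

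The 24 columns as separate samples gave 28 members, 11107 of 15279 genes tested and 59 pathway genes. They gave 19 members between days and 20 with a change over days that differed. The replicate block on the column number gave 28 members, 11103 genes, 59 pathway genes, 19 and 20. For the comparisons over days no count over all genes was taken, so 19 and 20 have no background beside them. Columns of a number share only that number, and such p-values measure the sampling noise of a library.

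At 2-fold, 2, 7 and 4 members were higher in KO on days 33, 36 and 42 (2.58, 3.34 and 3.1% of all genes). Between days 42 and 33, 0 passed 2-fold in WT (3.82% of all genes upward), 2 in WT and 4 in KO rose by 1.5-fold with library totals (10.6 and 8.23%), and 1 to 2 in KO without a column (5.67 to 5.95%).

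Signs turned for genes near 0: Rad50 to -0.034 (without day 42), Fancc to -0.032 (without day 33), Chek2 to -0.00064 (no filter) and -0.057 and -0.056 (without day 36 and day 42), Trp53bp1 to -0.0036 and Lig4 to 0.033 (without day 36), and Lig4 to 0.067 (library totals); the cause was not tested. Leaving out 1 library or column gave -0.062 to 0.28 for Xrcc3, -0.025 to 0.37 for Fancc, -0.046 to 0.13 for Chek2, -0.027 to 0.20 for Prkdc and -0.13 to 0.044 for Lig4. Of 23 further genes (the 21 called pathway genes, Mb21d1 and Mki67), 0 changed sign and 8 lost the call with day as a factor and 8 with no filter.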
